A study of Drosophila melanogaster with 4 samples.

Results

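Potassium channel genes were followed in RNA sequencing of *Drosophila melanogaster* larval brains. The 10 genes were *Sh*, *Shal*, *Shab*, *Shaw*, *eag*, *sei*, *Elk*, *KCNQ*, *slo* and *SK*. They were chosen by FlyBase symbol, without use of their values but with earlier results of these data known. They are 10 of the 23932 features counted in the series. Brains came from WL3 (wandering, at the end of larval life) larvae in which *inscuteable*-GAL4 (*insc*-GAL4) drove RNAi. The larvae of the libraries labelled *orb2* RNAi carried a hairpin against *orb2*, which encodes an RNA-binding protein, and those of the control libraries labelled *w* RNAi carried a hairpin against *white* (*w*), an eye pigment transporter gene. All larvae carried the same driver, and there were 2 libraries per label. Each library was a pool of brains dissected in batches. The driver expresses throughout the neuroblast lineages (the stem cells of the brain and their progeny), whereas RNA was taken from whole brains, so cells outside these lineages were measured with them.

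Potassium channels let potassium leave the cell, which brings the membrane back towards rest after an action potential and sets how easily a neuron fires. Voltage-gated channels open when the membrane is depolarized, and calcium-activated channels open as calcium rises in the cell. Flies gave the founding members of several families that mammals share. *Shaker* (*Sh*), *Shab*, *Shaw* and *Shal* are fly genes of the Kv1, Kv2, Kv3 and Kv4 families. The gene *ether a go-go* (*eag*) gave its name to a family with *seizure* (*sei*) and *Elk*. Most are best known from neurons and muscle, and mutants of *Sh*, *eag*, *sei* and *slo* were found through shaking, paralysis or flight defects.

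The counts summed to between 34.61 and 75.41 M per library. Levels are given in CPM, the count of a gene for each 1 M counts of its library after TMM scaling in edgeR. The gene targeted by the hairpin went against its label: *orb2* had 105.3 and 53.59 CPM in libraries labelled *orb2* RNAi, against 17.12 and 15.31 CPM in those labelled *w* RNAi. Its log2 fold change was 2.29 (SE 0.39, 95% interval 1.26 to 3.33), and the labels did not overlap. In edgeR's quasi-likelihood test the unadjusted p was 0.00274 and the adjusted p 0.9998. Of its exon bases, 14.8% are shared with *CG43783*, so reads of the overlap could have been counted for either gene. Every direction given here is therefore between library labels and not between brains with less or more *orb2*. All 15 neuron markers, 10 neuroblast markers and 9 glia markers were above 0 in all 4 libraries, as brain tissue should show. Most features with enough counts to be tested were above 0 too, so this does not identify the tissue. The 13 muscle markers were above 0 as well and summed to 775.6 and 693.1 CPM in the libraries labelled *orb2* RNAi, against 179.9 and 360.5 CPM in those labelled *w* RNAi. The labels do not say whether the 2 pools of a label came from separate crosses, so p-values measure the spread between these pools.

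All 10 channel genes were detected in every library, and none passed the test between the labels. edgeR's quasi-likelihood test was fitted on the 13082 features with enough counts. A call needed both a p under 0.05 after Benjamini-Hochberg adjustment and a log2 fold change beyond 0.5 in size. All 10 genes were among the features tested. None of the 10 was called higher and none lower (background over all features tested: 0% in either direction), and the adjusted p was 0.9998 for each in edgeR. At an unadjusted p under 0.05, 0 of the 10 lay higher and 0 lay lower under the *orb2* RNAi label, against 3.68% and 0.894% of all features. DESeq2 also called 0 of the 10, against 0.879% of the features with an adjusted p. The median log2 fold change of the 10 was 0.12, with a range of -0.27 to 0.69, and that of all features was 0.02. None of the 10 had both libraries labelled *orb2* RNAi above both labelled *w* RNAi (18.5% of all features did), and none had both below (11.7% of all features did).

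The channel genes spread widely between the 2 libraries labelled *w* RNAi. Replicate 2 of that label was the lowest of the 4 libraries for 10 of the 10 channel genes, as it was for 40.3% of all features. Replicate 1 of the same label was the highest for 8 of the 10, against 27.2% of all features, and *Shab* and *slo* were the exceptions. Both held for 8 of the 10, against 19.3% of all features. The libraries labelled *orb2* RNAi lay between those labelled *w* RNAi for those 8 genes, which the plot of CPM by library shows gene by gene. In pooled tissue, fewer cells of a type and less RNA per cell cannot be told apart.

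**Figure D1:**
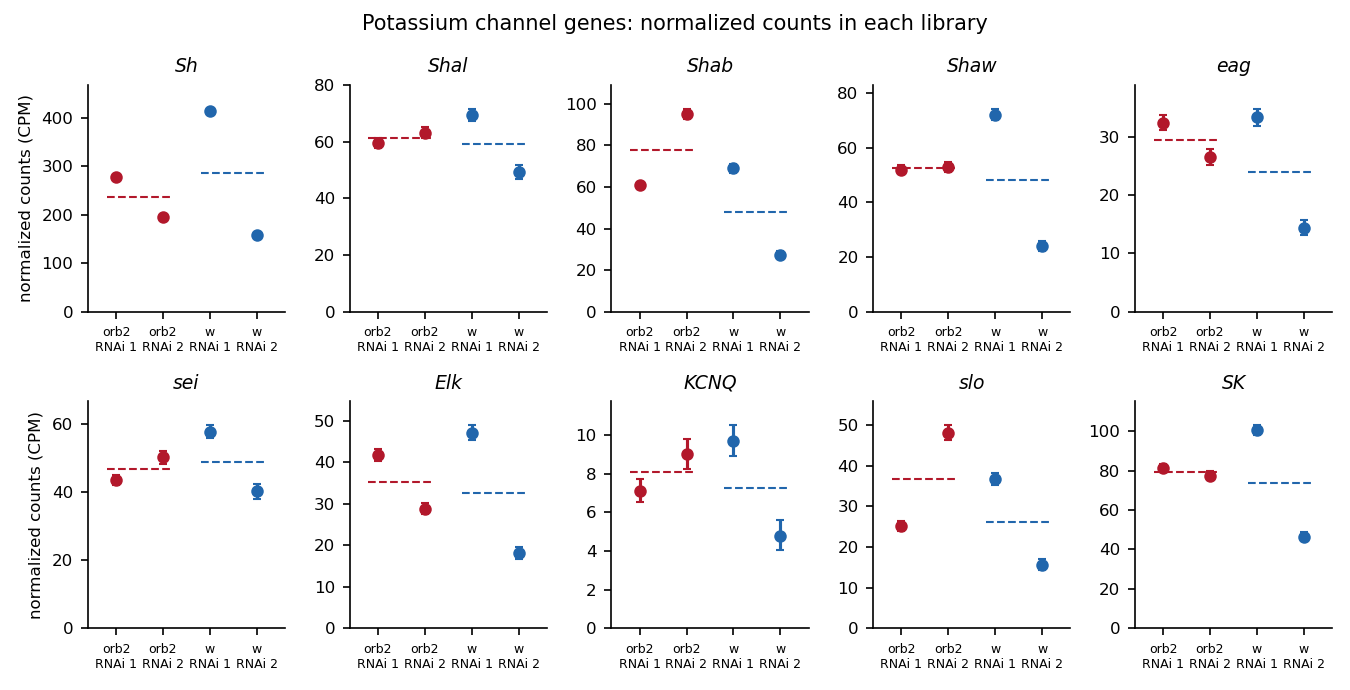
Level of each of the 10 potassium channel genes in CPM (y axis, linear, from 0) in the 4 libraries (x axis), one panel per gene. Points are single libraries with exact 95% Poisson intervals, which cover counting error only, and dashed lines are the mean of the 2 libraries of a label. In every panel replicate 2 labelled *w* RNAi is the lowest point, from 4.79 CPM for *KCNQ* to 158.6 CPM for *Sh*, and the labels overlap.

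*Sh* and *Shal* carry the fast, inactivating A-type potassium currents. *Sh*, the channel at axons and presynaptic terminals, had 278 and 196.4 CPM in libraries labelled *orb2* RNAi, against 413.6 and 158.6 CPM in those labelled *w* RNAi. Its highest and its lowest level were thus both in libraries labelled *w* RNAi, 2.61-fold apart, and the libraries labelled *orb2* RNAi were 1.42-fold apart. The log2 fold change was -0.27 (SE 0.51, 95% interval -1.62 to 1.08), the lowest of the 10. *Shal*, which carries the A-type current of cell bodies and dendrites, had 59.59 and 63.17 CPM in libraries labelled *orb2* RNAi, against 69.42 and 49.25 CPM in those labelled *w* RNAi. It was the most even of the 10 between the libraries labelled *w* RNAi, at 1.41-fold, with a log2 fold change of 0.05 (SE 0.25, 95% interval -0.61 to 0.71).

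*Sh* is the longest of the 10 gene models. In the BDGP6.54 annotation *Sh* (FBgn0003380) lies on the minus strand of chromosome X from 17924307 to 18063247, with 17 transcripts and 22801 exon bases, counting each base once. Its longest coding sequence is 1965 bases, so most of the exonic sequence that can collect reads is untranslated or belongs to other isoforms. *Shal* (FBgn0005564) lies on the minus strand of chromosome 3L from 19566851 to 19584568, with 3 transcripts and 4606 exon bases.

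*Shab* encodes a delayed rectifier channel, which opens more slowly and hardly inactivates, and *Shaw* is a fly gene of the Kv3 family. *Shab* had 60.66 and 94.89 CPM in libraries labelled *orb2* RNAi, against 68.87 and 27.42 CPM in those labelled *w* RNAi. Replicate 2 labelled *orb2* RNAi was its highest library, and replicate 1 of that label fell between the libraries labelled *w* RNAi. Its log2 fold change of 0.69 (SE 0.52, 95% interval -0.67 to 2.05), a 1.61-fold difference, was the highest of the 10. *Shaw* had 51.97 and 52.96 CPM in libraries labelled *orb2* RNAi, against 72.09 and 24.06 CPM in those labelled *w* RNAi. Its libraries labelled *orb2* RNAi thus nearly coincided while those labelled *w* RNAi were 3-fold apart, the widest such gap of the 10, and the log2 fold change was 0.13 (SE 0.54, 95% interval -1.30 to 1.56). *Shab* (FBgn0262593) lies on the plus strand of chromosome 3L from 2895017 to 2959579, with 10 transcripts and 11359 exon bases. *Shaw* (FBgn0003386) lies on the plus strand of chromosome 2L from 3718185 to 3729145, with 5 transcripts and 5000 exon bases.

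The family of *eag* was represented by all 3 fly members. *eag*, the founding gene of the family, had 32.45 and 26.47 CPM in libraries labelled *orb2* RNAi, against 33.34 and 14.36 CPM in those labelled *w* RNAi. *sei*, the fly ERG-type channel known for paralysis of mutants at high temperature, had 43.49 and 50.09 CPM in libraries labelled *orb2* RNAi, against 57.59 and 40.19 CPM in those labelled *w* RNAi. *Elk* had 41.62 and 28.80 CPM in libraries labelled *orb2* RNAi, against 47.14 and 18.08 CPM in those labelled *w* RNAi. In all 3 genes the libraries labelled *orb2* RNAi lay inside the range of those labelled *w* RNAi. The libraries labelled *w* RNAi were 2.32-fold apart for *eag* and 2.61-fold for *Elk*, but 1.43-fold apart for *sei*. The log2 fold change was 0.30 for *eag* (SE 0.46, 95% interval -0.90 to 1.51), -0.06 for *sei* (SE 0.27, 95% interval -0.76 to 0.64) and 0.11 for *Elk* (SE 0.52, 95% interval -1.26 to 1.48).

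The gene models of this family differ widely in size. *eag* (FBgn0000535) lies on the plus strand of chromosome X from 14955477 to 15009989, with 7 transcripts and 10636 exon bases. *Elk* (FBgn0011589) lies on the plus strand of chromosome 2R from 17873939 to 17926695, with 2 transcripts and 5351 exon bases, and 5 other genes are nested in its span. *sei* (FBgn0003353) is the most compact of the 10, on the plus strand of chromosome 2R from 24047411 to 24053035, with 3 transcripts and 3278 exon bases. Of these bases 14.6% are shared with *gammaSnap1* and *ppk29* on the opposite strand. Since counting by strand was not stated, reads over these bases could be miscounted. The share of its counts affected is not known.

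*KCNQ* encodes the fly channel of the family whose mammalian members carry the slow M-type current, which restrains repeated firing. It had the lowest level of the 10, at 7.13 and 9.004 CPM in the libraries labelled *orb2* RNAi, against 9.70 and 4.79 CPM in those labelled *w* RNAi. The lowest of these values rested on 157 counts, and its exact 95% Poisson interval was 4.07 to 5.60 CPM, which covers counting error only. The libraries labelled *w* RNAi were 2.03-fold apart, beyond that interval, and the log2 fold change was 0.15 (SE 0.49, 95% interval -1.15 to 1.46). *KCNQ* (FBgn0033494) lies on the minus strand of chromosome 2R from 10145897 to 10192394, with 9 transcripts and 3875 exon bases. Of these, 27.4% are shared with *CG18011* and *asRNA:CR45133* on the opposite strand, and its counts are uncertain for the same reason as those of *sei*. Without *sei* and *KCNQ*, the median log2 fold change of the other 8 genes was 0.12.

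*slo* and *SK* encode the calcium-activated channels of large (BK) and small conductance. *slo* had 25.20 and 48.15 CPM in libraries labelled *orb2* RNAi, against 36.72 and 15.58 CPM in those labelled *w* RNAi. It shared with *Shab* a peak in replicate 2 labelled *orb2* RNAi, and it had the widest gap of the 10 between the libraries of that label, with replicate 1 at 0.523 of replicate 2. Its log2 fold change was 0.49 (SE 0.54, 95% interval -0.95 to 1.92). *SK* had 81.50 and 77.33 CPM in libraries labelled *orb2* RNAi, against 100.4 and 46.54 CPM in those labelled *w* RNAi. Its libraries labelled *orb2* RNAi were close to each other and lay inside the 2.16-fold range of the libraries labelled *w* RNAi, with a log2 fold change of 0.11 (SE 0.41, 95% interval -0.96 to 1.18). *slo* (FBgn0003429) lies on the plus strand of chromosome 3R from 24662491 to 24711595, with 23 transcripts, the most of the 10, and 10153 exon bases. *SK* (FBgn0029761) lies on the plus strand of chromosome X from 5340236 to 5405138, with 14 transcripts and 10891 exon bases.

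The width of these intervals limits what the comparison could show. The narrowest, that of *Shal*, reached from -0.61 to 0.71, and the widest upper bound was 2.05 for *Shab*, and the interval of each of the 10 genes reached beyond 0.5 in both directions. An exact permutation test of 2 libraries against 2 cannot go below p = 0.33, so none was run on single genes. Across the 10, the unadjusted p ran from 0.243 for *Shab* to 0.854 for *Shal* in edgeR.

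Levels of different genes were compared per kilobase of exon (CPM/kb), since a longer gene collects more reads at the same number of transcripts. Averaged over the 4 libraries, *sei* had the highest level at 14.6 CPM/kb, followed by *Shal* at 13.1, *Sh* at 11.5 and *Shaw* at 10.1 CPM/kb. *SK* came next at 7.02 CPM/kb, then *Elk* at 6.34, *Shab* at 5.54, *slo* at 3.09, *eag* at 2.51 and *KCNQ* at 1.98 CPM/kb. *Sh* was the first of the 10 in CPM and only the third per kilobase. The range of each gene over the libraries overlapped that of the next in this order. Within a library the order of neighbours was steadier, and 4 of the 9 neighbouring pairs kept it in all 4 libraries (*sei* above *Shal*, *Shaw* above *SK*, *Shab* above *slo* and *eag* above *KCNQ*), while the other 5 kept it in 3. *KCNQ* was the lowest in all 4 libraries, and *sei* was the highest in all but replicate 1 labelled *w* RNAi, where *Sh* was. Exon length counts every annotated exon base of a gene, and isoforms that leave exons out lower a level per kilobase. The places of *sei* and *KCNQ* also rest on counts over exon bases shared with other genes.

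**Figure D2:**
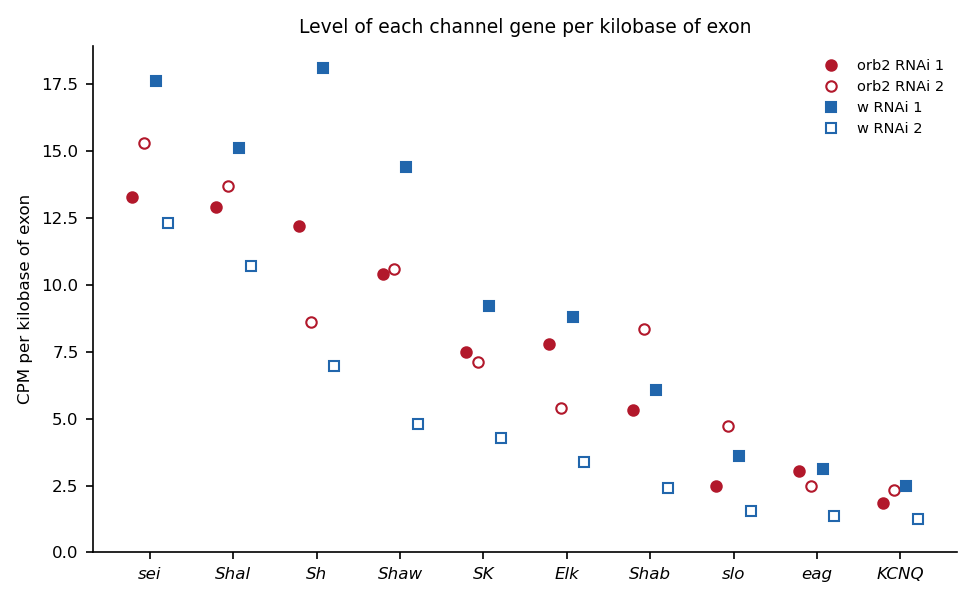
Level per kilobase of exon in CPM/kb for the 10 channel genes, ordered by their mean over the 4 libraries. Circles are single libraries labelled *orb2* RNAi and squares those labelled *w* RNAi, with replicate 1 filled and replicate 2 open. The order runs from *sei*, with a mean of 14.6 CPM/kb, to *KCNQ*, with 1.98 CPM/kb, and neighbouring genes overlap.

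The difference between the libraries labelled *w* RNAi had the same direction in all 10 genes and varied in size. On the log2 scale, replicate 1 over replicate 2 had a median of 1.22 for the 10 genes and 0.02 for all features, and ran from 0.49 for *Shal* to 1.58 for *Shaw*. It lay above 0 for 10 of the 10, against 50.9% of all features. The libraries labelled *orb2* RNAi had no such shared difference, with a median of -0.06 for replicate 1 over replicate 2 and 4 of the 10 above 0. Set against the library labelled *w* RNAi of the same number, the log2 ratio of *orb2* RNAi over *w* RNAi was below 0 for all 10 genes at number 1, from -0.57 for *Sh* to -0.04 for *eag*, and above 0 for all 10 at number 2, from 0.31 for *Sh* to 1.79 for *Shab*. The numbers only name the libraries and do not pair them.

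The comparison of labels therefore turned on which library labelled *w* RNAi was in it. Replicate 1 lay above replicate 2 of that label for all 10 genes. Leaving either out was thus bound to move the fold changes in the direction seen. The values below restate that gap. Without replicate 1 labelled *w* RNAi, the median log2 fold change of the 10 genes was 0.88, against 0.17 for all features in that fit, and 10 of the 10 lay above 0. At an unadjusted p under 0.05, 5 of the 10 were then higher in the libraries labelled *orb2* RNAi, which were *Shab*, *Shaw*, *eag*, *Elk* and *SK*, against 17.6% of all features. Without replicate 2 labelled *w* RNAi, the median was -0.28, against 0.06 for all features, and 1 of the 10 lay above 0. *Sh* and *Shaw* then passed an unadjusted p under 0.05 as lower, against 2.97% of all features. None of the 10 was called in either fit, with edgeR adjusted p of 0.101 or more without replicate 1 and 0.493 or more without replicate 2. In such a fit the lone library labelled *w* RNAi is taken to vary like the libraries labelled *orb2* RNAi.

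**Figure D3:**
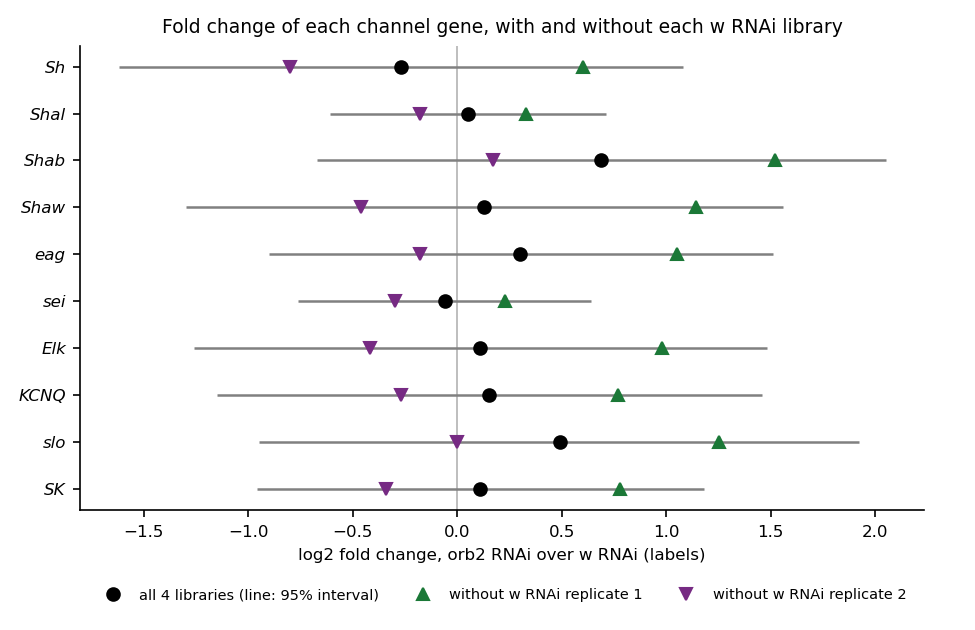
Log2 fold change of the libraries labelled *orb2* RNAi over those labelled *w* RNAi (x axis) for the 10 channel genes (y axis), from edgeR's quasi-likelihood fit. Black points with 95% intervals use all 4 libraries and run from -0.27 for *Sh* to 0.69 for *Shab*, with 0 inside every interval. Upward triangles leave out replicate 1 labelled *w* RNAi and lie right of the black points for all 10 genes. Downward triangles leave out replicate 2 of that label and lie left of the black points. Both directions follow from replicate 1 lying above replicate 2 of that label for all 10 genes.

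Neuron markers moved with the channel genes across the libraries. The summed level of the 10 channel genes was 681.6 and 647.3 CPM in the libraries labelled *orb2* RNAi, against 908.9 and 398.9 CPM in those labelled *w* RNAi. The 15 neuron markers, which include the synaptic genes *brp* and *Syt1* and the sodium and calcium channel genes *para* and *cac*, summed to 4582 and 4039 CPM in the libraries labelled *orb2* RNAi, against 5498 and 3067 CPM in those labelled *w* RNAi. Both sums were highest in replicate 1 and lowest in replicate 2 labelled *w* RNAi. As a percentage of the neuron marker sum, the channel genes were at 14.9 and 16.0 in the libraries labelled *orb2* RNAi, against 16.5 and 13.0 in those labelled *w* RNAi. The highest and the lowest library were thus 1.27-fold apart in this ratio, and 2.28-fold apart in the channel sum itself. Both spreads lean on *Sh*, which alone gave 278 and 196.4 CPM of the channel sum in the libraries labelled *orb2* RNAi. In those labelled *w* RNAi it gave 413.6 and 158.6 CPM. Replicate 2 labelled *w* RNAi was the lowest library for 12 of the 15 neuron markers, 2 of the 10 neuroblast markers, 1 of the 9 glia markers and 4 of the 13 muscle markers. The part of the neuron markers in the channel result was not tested.

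**Figure D4:**
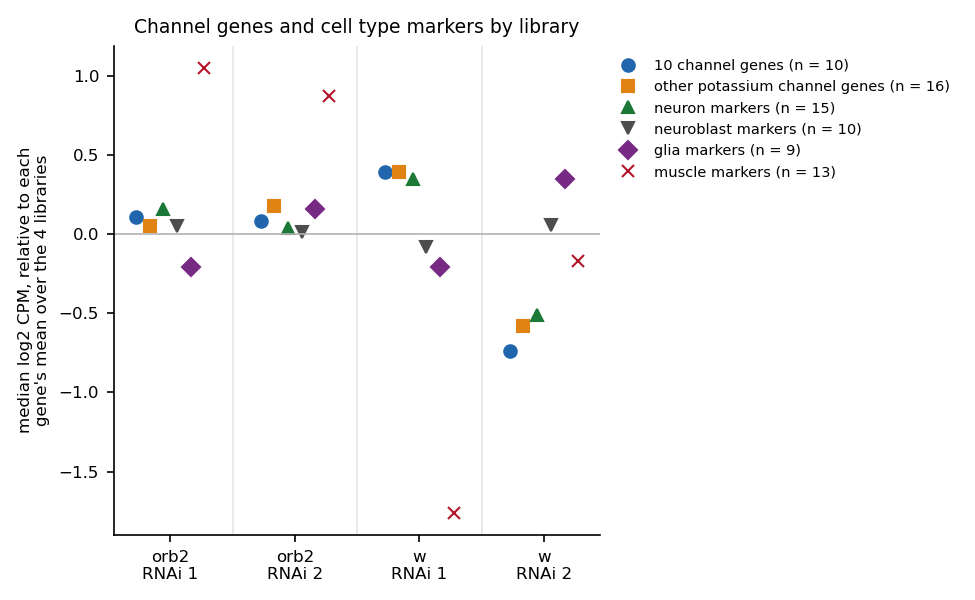
Median over each gene list of the log2 CPM relative to each gene's own mean over the 4 libraries (y axis), by library (x axis), for the 10 channel genes, the other potassium channel genes and the marker lists. The channel genes lie at 0.11 and 0.08 in the libraries labelled *orb2* RNAi, against 0.39 and -0.74 in those labelled *w* RNAi, and the neuron markers at 0.16 and 0.04, against 0.35 and -0.51.

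The other cell types did not share that order. Neuroblast markers summed to 964.7 and 905.5 CPM in the libraries labelled *orb2* RNAi, against 846.1 and 938.2 CPM in those labelled *w* RNAi, and glia markers to 943 and 1298 CPM, against 879.5 and 1447 CPM. Neuroblast sums thus stayed within 846.1 to 964.7 CPM, and glia sums were highest where the channel genes were lowest. For 11 of the 13 muscle markers the labels did not overlap, with *orb2* RNAi the higher, which was so for none of the 10 channel genes and 18.5% of all features. Stress genes (small heat shock genes and *Hsp68* and *Hsp70* genes) summed to 5708 and 4714 CPM in the libraries labelled *orb2* RNAi, against 5033 and 7685 CPM in those labelled *w* RNAi, so they were highest in the library where the channel genes were lowest. Of the 7 stress genes *Hsp22* was at 0 in every library, and the *Hsp70* genes have near-identical copies between which reads could be split. Their part in the channel result was not tested.

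Exon length moved with the difference between the libraries labelled *w* RNAi as well. Over protein-coding genes of the annotation the median exon length was 1734 bases and the median span was 2.16 kb, and all 10 channel genes exceeded both, with exon lengths from 3278 to 22801 bases. Over the 13040 tested features with an exon length, the log2 ratio of replicate 1 over replicate 2 labelled *w* RNAi went with log2 exon length (Pearson's r 0.09, Spearman's rho 0.31, across genes, which are not independent replicates). Over the 10 channel genes the same values were 0.52 and 0.54, points that share the same pair of libraries. *sei* and *Shal*, with 2 of the 3 shortest exon lengths of the 10, had the smallest ratios. *Shaw*, with 5000 exon bases, had the largest, 1.58. *Elk*, with 5351 exon bases, had 1.38, as did *Sh* with 22801.

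**Figure D5:**
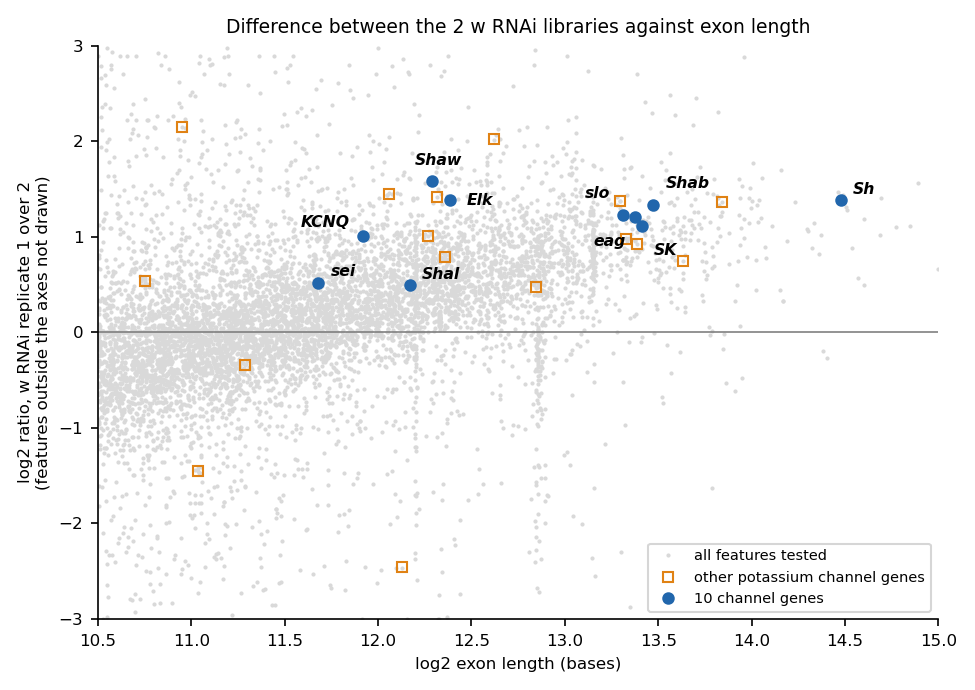
Log2 ratio of replicate 1 over replicate 2 labelled *w* RNAi (y axis) against log2 exon length in bases (x axis). Grey points are all features tested, squares the other potassium channel genes and filled circles the 10 channel genes, with features beyond the axes left out. The 10 genes lie at 0.49 to 1.58, all above 0.

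With the trend of level on exon length taken out of each library, the ratio between the libraries labelled *w* RNAi shrank for all 10 genes and remained above 0 for all 10. Its median was 0.37, against 1.22 before, and all features had a median of 0.01. *Shaw* kept the largest ratio, 1.10 against 1.58 before, followed by *Elk* at 0.87 and *KCNQ* at 0.69. For *Sh*, the longest gene, it was 0.16, against 1.38 before. The neuron markers had a median of 0.96 before and 0.05 after the same step. The median log2 fold change between the labels was 0.04 after this step, with 6 of the 10 genes above 0.

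A wider list held 16 other potassium channel genes, related cation channel genes and their regulators, chosen by role. All 16 were tested in edgeR, where 0 were called and 0 reached an unadjusted p under 0.05 in either direction. Over all features tested, 0% were called, and 3.68% lay higher and 0.894% lower at that unadjusted p. Their median log2 fold change was 0.12, with a range of -0.52 to 1.09. It lay above 0 for 10 of the 16, against 6865 of all 13082 features. Replicate 2 labelled *w* RNAi was the lowest library for 13 of the 16, against 40.3% of all features. In sum they had 845.2 and 870.7 CPM in libraries labelled *orb2* RNAi, against 1097 and 538.8 CPM in those labelled *w* RNAi.

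Partners of *Sh* shared its order in the libraries labelled *w* RNAi but not in those labelled *orb2* RNAi. *Hk*, its beta subunit, had 39.47 and 44.74 CPM in libraries labelled *orb2* RNAi, against 49.89 and 26.29 CPM in those labelled *w* RNAi. *qvr* (also *sleepless*), a membrane-anchored protein that regulates *Sh* channels, had 125.8 and 151.4 CPM in libraries labelled *orb2* RNAi, against 181.5 and 67.97 CPM in those labelled *w* RNAi. Both were highest in replicate 1 and lowest in replicate 2 labelled *w* RNAi, as were 10 of the 16 genes and 19.3% of all features. Unlike *Sh*, both were lower in replicate 1 than in replicate 2 labelled *orb2* RNAi. The log2 fold changes were 0.14 for *Hk* (SE 0.36) and 0.15 for *qvr* (SE 0.50). *Slob*, which binds the *slo* channel, had 13.80 and 25.32 CPM in libraries labelled *orb2* RNAi, against 16.96 and 12.26 CPM in those labelled *w* RNAi. Like *slo*, it was highest in replicate 2 labelled *orb2* RNAi, with replicate 1 of that label at 0.545 of replicate 2, and its log2 fold change was 0.42 (SE 0.41). *dysc*, another regulator of *slo*, did not share this order. It had 118.1 and 107.1 CPM in libraries labelled *orb2* RNAi, against 151.4 and 76.67 CPM in those labelled *w* RNAi, and was highest in replicate 1 labelled *w* RNAi.

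The pore-forming relatives spread unevenly. Their highest and lowest libraries were from 1.45-fold apart for the inward rectifier gene *Irk2* to 6.61-fold apart for the leak channel gene *Ork1*. *SLO2*, a relative of *slo*, had 84.10 and 64.45 CPM in libraries labelled *orb2* RNAi, against 118 and 45.62 CPM in those labelled *w* RNAi. *Shawl*, a relative of *Shaw*, had 13.16 and 14.44 CPM in libraries labelled *orb2* RNAi, against 24.28 and 5.98 CPM in those labelled *w* RNAi. Both kept the order of most channel genes, with log2 fold changes of -0.14 for *SLO2* (SE 0.50) and -0.13 for *Shawl* (SE 0.69). The highest log2 fold changes of the list were 1.09 for the inward rectifier gene *Irk1* (SE 1.09), at 1.47 and 0.542 CPM in the libraries labelled *orb2* RNAi, against 0.607 and 0.336 CPM in those labelled *w* RNAi, and 0.74 for the leak channel gene *sand* (SE 1.07), at 1.29 and 1.70 CPM, against 1.47 and 0.305 CPM. These low levels overlapped between the labels, and most exon bases of *Irk1* are shared with *CG46310* or *cnc*. The lowest were -0.52 for the inward rectifier gene *Irk3* (SE 0.63), at 6.11 and 11.09 CPM in the libraries labelled *orb2* RNAi, against 6.59 and 18.08 CPM in those labelled *w* RNAi, and -0.30 for *CngA* (SE 0.61), a cyclic nucleotide-gated channel gene, at 25.25 and 12.87 CPM, against 34.29 and 12.50 CPM. *Irk3* was highest in replicate 2 labelled *w* RNAi, where the 10 channel genes were lowest.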

How the data were processed

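The authors extracted RNA with Trizol from pooled WL3 brains and made polyA libraries. The deposited values are raw counts for each feature of the annotation. To make them the authors trimmed reads with TrimGalore!, aligned them to BDGP6.32 with HISAT2 and counted them with featureCounts. Versions of TrimGalore! and HISAT2 and the settings for read pairs, strand and multiple alignments are not given in the sources used here. The labels and the methods name different TruSeq kits, so counting by strand was not assumed. Library totals ran from 34.61 to 75.41 M counts. The unit counted, read or read pair, is not stated, and together the totals exceed the number of reads that the paper reports. Intervals treat counts as independent and cover counting error only.

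Tools were edgeR 4.0.16 and DESeq2 1.42.0 under R 4.3.3. Labels were compared by the quasi-likelihood test of edgeR after TMM scaling and filterByExpr, with the label as the only term, fitted on all 4 libraries and adjusted over all features tested. The code was tested on simulated counts. Replicates of a label differed beyond sampling noise (chi-square per degree of freedom 443 between the libraries labelled *w* RNAi and 146 between those labelled *orb2* RNAi). CPM per kilobase used exon lengths, and gene positions were read from Ensembl's BDGP6.54 annotation, which is later than the one used for counting. As an alternative, a lowess curve (span 0.3) of level against exon length was subtracted in each library. Others were DESeq2, other scalings and filters, a replicate block and each library left out.

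The channel genes, the other lists and the tests were chosen with earlier results of these data known. All 10 channel genes were named, with *Hk*, *qvr*, *Slob*, *SLO2*, *Shawl* and the 2 genes with the highest and the 2 with the lowest log2 fold change among the other potassium channel genes. *Irk2*, *Ork1* and *dysc* were named after their values were seen. The genes of most similar pattern were those with the smallest root mean square difference from the median profile of the 10, among features with a mean of at least 1 CPM. Sequences of the genes were not used here.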

Additional observations from a re-analysis of the deposited data

How the results depend on the processing

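None of the 10 channel genes was called under any of the alternatives run: another tool, 2 other scalings, 2 other filters, a replicate block, the exon length trend taken out, no minimum fold change and each library left out. Over all features the label comparison called 0 higher and 0 lower under the *orb2* RNAi label with edgeR, but DESeq2 called 89 higher and 40 lower, and edgeR with a replicate block called 62 higher and 11 lower. Deviations of same-numbered libraries correlated at 0.183 over only 2 numbers, so the block is not read as a pairing, and with it the median log2 fold change of the 10 genes was 0.24. With each library left out in turn, the calls over all features ran from 0 to 91 higher and from 0 to 51 lower. In those fits the median log2 fold change ran from -0.28 to 0.88 over the 10 genes and from -0.24 to 0.68 over the other potassium channel genes, the extremes falling where a library labelled *w* RNAi was left out. By gene, they ran from -0.80 to 0.60 for *Sh*, from -0.18 to 0.33 for *Shal*, from 0.17 to 1.52 for *Shab*, from -0.46 to 1.14 for *Shaw*, from -0.18 to 1.05 for *eag*, from -0.30 to 0.23 for *sei*, from -0.42 to 0.98 for *Elk*, from -0.27 to 0.77 for *KCNQ*, from -0.05 to 1.25 for *slo* and from -0.34 to 0.78 for *SK*. With the exon length trend taken out, *Shal* was at -0.09, *SK* at -0.03 and *Sh* at -0.46. *Sh* was the 1 channel gene with an unadjusted p under 0.05 in that edgeR fit (p 0.0268, adjusted p 0.896). Over all 13040 features in it, 717 had such a p. Of 110 recomputed values of single channel genes, 95 kept their sign and side of the threshold, 15 changed sign, and 0 passed the threshold. The causes were not tested. Each of the 10 genes had 157 counts or more in every library. Replicate 2 labelled *w* RNAi, the lowest for all 10 genes, also had the smallest total, 34.61 M counts. The part of depth was not tested.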

Other observations

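The median profile of the 10 channel genes over the 4 libraries was compared with 10384 other features with a mean of at least 1 CPM. The 5 nearest were *GluClalpha*, *FucTA*, *PMCA*, *CG16972* and *Hs3st-A*, with root mean square differences of 0.0417 to 0.0451 on the log2 scale over the 4 libraries. *GluClalpha*, a glutamate-gated chloride channel subunit gene, had 156.4 and 154.6 CPM in libraries labelled *orb2* RNAi, against 191.3 and 89.44 CPM in those labelled *w* RNAi. *PMCA*, the plasma membrane calcium pump gene, had 587 and 559.4 CPM in libraries labelled *orb2* RNAi, against 723.2 and 327.6 CPM in those labelled *w* RNAi. *SK* was the nearest of the 10 to that profile, at 0.0492, and *slo* the farthest, at 0.372. A likeness over 4 libraries is a description of these libraries.

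Of the 16 other potassium channel genes, 1 had both libraries labelled *orb2* RNAi above both labelled *w* RNAi, as did 18.5% of all features. This was the inward rectifier gene *Irk2*, at 11.15 and 12.36 CPM in the libraries labelled *orb2* RNAi, against 8.55 and 10.86 CPM in those labelled *w* RNAi, with a log2 fold change of 0.28 (SE 0.33) that did not pass the test. *Ork1*, a leak channel gene, ran against the common order, at 2.09 and 4.86 CPM in the libraries labelled *orb2* RNAi, against 0.735 and 4.21 CPM in those labelled *w* RNAi, where replicate 1 was its lowest library.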
